A study of Mus musculus with 24 samples.

Results

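The transcripts described here encode 10 enzymes of glycolysis, chosen by name: the hexokinases Hk1 and Hk2, the phosphofructokinases Pfkl and Pfkp, the regulator Pfkfb3, and Aldoa, Pgk1, Eno1, Pkm and Ldha. All 10 were found among the 20555 genes of each of 2 tables, 1 for endothelial cells and 1 for microglia, the resident macrophages of the brain. Slices of mouse brain were kept for 2 days with exosomes, small membrane vesicles that cells release, at 5 µg per slice, or with phosphate-buffered saline (PBS). The exosomes carried PKH67, a fluorescent membrane dye, and came from donors called knockout 1 (KO1), knockout 2 (KO2) and wild type (WT). The series title names CEMIP, a hyaluronan-binding protein of tumour exosomes. Endothelial cells were gated as negative for CD45 and positive for CD31, and microglia as positive for CD45 with low CD11b and CD49d. All groups share the slice culture, the enzymatic digestion and the sort. The knockouts concern the donors of the exosomes, so no mouse transcript checks those labels. Every sample is labelled exosome-positive by the sort, PBS included, although PBS slices received no dyed vesicles. Mouse strain, sex and age, and whether KO1 and KO2 are each 1 clone, are not stated in the labels.

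The endothelial table held 3 KO1, 2 KO2, 2 WT and 3 PBS libraries. The microglia table held 3 KO1, 3 KO2, 3 WT and 2 PBS libraries. Libraries carry the letters A, B and C, which the labels do not explain, so the spread between them may be technical. Levels are given in normalised counts recovered from the deposited log2 values, and differences in the deposited log2 units, each with its standard error (SE) from limma, fitted over all libraries of a cell type together. Library totals ranged from 25.7 to 28.0 M normalised counts for endothelial cells, and for microglia from 27.2 to 29.7 M. The endothelial values stepped in units that correspond to 18.3 to 35.5 M reads per library, and the read depth of the microglia is unknown. PBS A, B and C stood at 18.3, 18.8 and 29.3 M, and the exosome libraries at 25.8 (WT A) to 35.5 M (KO1 B). Genes listed above 0 numbered 11305, 11952 and 11668 in PBS A, B and C, and 9235 (WT A) to 11531 (KO1 B) in exosome libraries. The part of depth in the differences from PBS was not tested. In endothelial libraries, 10 of 10 endothelial markers stood at 100 counts or more and summed to 213844 to 280002. In microglia, microglial markers summed to 23694 to 33380, but only 4 to 7 of the 10 stood at 100 counts or more and 1 to 3 were listed at 0. Of the defining microglial markers, P2ry12 lay at 0 to 10.9 in exosome libraries and at 0 in PBS libraries, and Cx3cr1 at 0 to 156 and at 31.7 to 51.1.

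Glycolysis breaks glucose down to pyruvate in the cytosol and yields ATP without oxygen. Hexokinase traps glucose as glucose-6-phosphate, phosphofructokinase commits it to the pathway, and aldolase, phosphoglycerate kinase, enolase and pyruvate kinase carry it on to pyruvate, which lactate dehydrogenase can turn into lactate. Endothelial cells draw much of their ATP from glycolysis, and macrophages raise it when they are activated. Many of these genes are targets of hypoxia-inducible factor (HIF), a transcription factor whose core motifs include ACGTG.

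Promoter sequences are shown for Eno1 and Hk1, the members that the authors' deposited table lists, for Ldha, the member window with the most copies of that core, and for Hk2, the hexokinase listed at 0 in the endothelial PBS libraries. Each window runs from 250 bases before to 50 bases after an annotated start (RefSeq, GRCm38.p6), 5′ to 3′ on the gene's strand, with ACGTG or its reverse complement CACGT in capitals.
Eno1, chr4:150236947-150237246, plus strand: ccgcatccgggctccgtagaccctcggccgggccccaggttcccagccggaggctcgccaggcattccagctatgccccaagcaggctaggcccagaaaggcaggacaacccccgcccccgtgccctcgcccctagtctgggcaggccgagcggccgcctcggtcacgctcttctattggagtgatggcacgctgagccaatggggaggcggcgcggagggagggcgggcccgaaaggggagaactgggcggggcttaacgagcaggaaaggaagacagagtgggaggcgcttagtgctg
Ldha, chr7:46845554-46845853, plus strand: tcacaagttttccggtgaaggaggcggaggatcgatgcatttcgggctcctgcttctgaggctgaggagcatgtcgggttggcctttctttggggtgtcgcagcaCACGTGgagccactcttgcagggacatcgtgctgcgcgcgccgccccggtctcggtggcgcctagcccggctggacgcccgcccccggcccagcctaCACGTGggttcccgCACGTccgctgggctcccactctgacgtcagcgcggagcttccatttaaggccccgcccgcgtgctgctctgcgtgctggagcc
Hk1, chr10:62340372-62340671, minus strand: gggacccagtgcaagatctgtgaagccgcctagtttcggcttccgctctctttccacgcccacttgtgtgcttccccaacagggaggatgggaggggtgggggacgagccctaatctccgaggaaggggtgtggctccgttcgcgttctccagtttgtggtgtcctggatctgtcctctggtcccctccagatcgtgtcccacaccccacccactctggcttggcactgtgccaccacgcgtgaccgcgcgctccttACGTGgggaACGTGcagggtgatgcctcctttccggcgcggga
Hk2, chr6:82774405-82774704, minus strand: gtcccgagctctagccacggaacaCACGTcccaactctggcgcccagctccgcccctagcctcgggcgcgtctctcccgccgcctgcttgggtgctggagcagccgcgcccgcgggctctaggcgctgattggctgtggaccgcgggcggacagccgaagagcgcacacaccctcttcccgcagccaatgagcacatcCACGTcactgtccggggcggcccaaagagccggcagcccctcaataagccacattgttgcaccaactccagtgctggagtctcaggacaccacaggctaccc
The Ldha window held 5 matches, which overlap in 3 stretches, 2 of them the palindrome CACGTG. The Hk1 and Hk2 windows shown held 2 matches each. The second window of Ldha and that of Hk1, at other annotated starts, held 0, as did the Eno1 window shown and the other Eno1 windows. Of 18 windows of the 10 members, 9 held at least 1 match, against 19.6% of all 32851 windows of the same length. Windows of a gene can overlap, and 2 of the Aldoa windows hold the same match, so these 9 are not separate sites. Pfkl and Pfkp, like Eno1, had none in any window. Other forms of the HIF core were not searched, so a window with 0 matches may still hold one. A match of 5 letters is a description of the sequence and not a binding site.

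Among the 10 members, the enzymes of the later steps stood highest in both cell types. Per kilobase of transcript, Pkm, the muscle-type pyruvate kinase, stood highest, at a median of 37299 normalised counts in endothelial cells and 41379 in microglia. Aldoa, aldolase A, came next in both, at 21725 and 26032. In endothelial cells Ldha (9035), Pgk1 (8823) and Eno1 (6926) followed, and their ranges over the libraries overlapped (5219 to 16005, 6033 to 12137 and 3430 to 10538). In microglia the order was Eno1 (8701), Ldha (8457) and Pgk1 (6259), again with overlapping ranges. The members of the upper steps stood lower: Hk1 at 1872, Pfkfb3 at 945, Pfkl at 612 and Pfkp at 142 per kilobase in endothelial cells, and Pfkfb3 at 2060 and Pfkl at 363 in microglia. The tables were normalised separately, so levels were not tested between cell types.

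The isoenzymes differed between the cell types. Hk1, the broadly expressed hexokinase bound to mitochondria, held nearly all of the Hk1 and Hk2 signal in endothelial cells, where Hk2, the inducible form, was listed at 0 in all 3 PBS libraries. Endothelial Hk2 stood at 0, 688 and 33.0 in KO1 A, B and C, at 20.2 and 0 in KO2 B and C, and at 21.2 and 3.44 in WT A and B. A single library, KO1 B, thus carried most of it. In microglia Hk2 stood at 829 per kilobase and Hk1 at 527, and Hk2 exceeded Hk1 in 8 of 9 exosome libraries, with a ratio of 0.68 to 2.25, and in 1 of 2 PBS libraries, with ratios of 0.954 and 1.02. Pfkp, the platelet form of phosphofructokinase, lay below Pfkl, the liver form, in all 10 endothelial and all 11 microglia libraries. It reached 99.8 counts at most in microglia, and 2073 in endothelial cells. Hk3, a further hexokinase, was abundant in microglia, at 17946 to 24982 normalised counts, not per kilobase, in exosome libraries and 16152 to 18668 in PBS libraries. In the same units Hk3 averaged 20596 over the 11 microglia libraries, Hk2 averaged 3417 and Hk1 averaged 2125. Hk3 is named here after its values were seen.

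**Figure D1:**
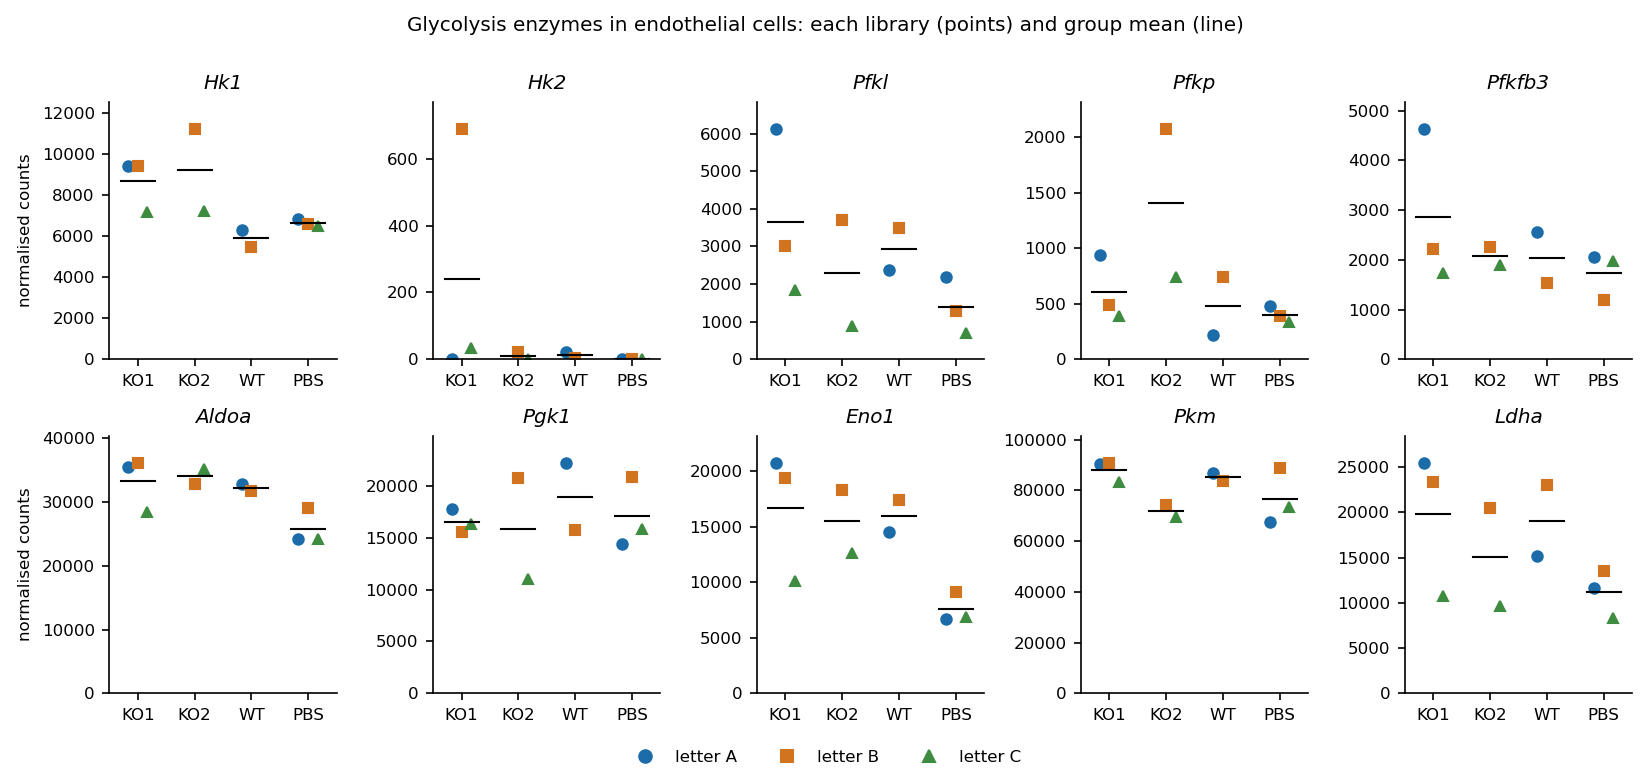
Normalised counts of the 10 enzymes in each endothelial library, on linear axes from 0, for KO1, KO2, WT and PBS; points are libraries, their shape and colour give the letter, and lines are group means. The 7 exosome libraries lie above the 3 PBS libraries for Eno1, and the letter C libraries (triangles) are the lowest for Ldha.

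Eno1, which encodes enolase 1, the enzyme that makes phosphoenolpyruvate (gene 13806, chromosome 4, 150236708 to 150248879, GRCm38.p6), stood higher in every endothelial exosome library than in any PBS library. It stood at 20702, 19384 and 10105 in KO1 A, B and C, at 18340 and 12665 in KO2 B and C, and at 14549 and 17408 in WT A and B. In PBS A, B and C it stood at 6738, 9120 and 6878. The groups did not overlap, with 10105 the lowest of 7 exosome libraries and 9120 the highest of 3 PBS libraries. Among all 7117 endothelial genes tested, 1.57% stood this way with every exosome library above PBS, and Eno1 was 1 of 9 tested members that did. The fitted difference was 0.50 (SE 0.127) for the knockout mean minus PBS and 0.50 (SE 0.157) for WT minus PBS. On log2 of the recovered counts plus 50 these were 1.05 and 1.08. Neither passed in limma after Benjamini-Hochberg adjustment over all genes (adjusted p = 0.667 and 0.335; unadjusted 0.00243 and 0.00846). Within letters the ratio of exosome to PBS ran from 1.47 to 3.07 over 7 pairs, with a median of 2.01. All 7 lie above 1 because the groups did not overlap, and the pairs share the 3 PBS libraries. In bulk RNA more transcript per cell and more cells that hold the transcript cannot be told apart.

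The authors' deposited table, made with a likelihood ratio test, lists Eno1 in endothelial cells, with an adjusted p of 0.00105 and a mean of 13589 normalised counts. In that table the log2 fold change of Eno1 is 0.166, and the contrast behind it is not stated in the labels or the table. The F test over the 4 groups in limma gave an adjusted p of 0.511 for Eno1. Between knockout and WT exosomes the difference of Eno1 was -0.01, with a 95% interval of -0.33 to 0.31, so a change of that size either way was not resolved.

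The Eno1 count cannot be separated from that of Eno1b, a near-identical copy of the gene elsewhere in the genome. The longest annotated transcripts matched at 1643 of 1652 aligned bases (99.5%, GENCODE M21), with 751 identical bases in a row. The ratio of Eno1b to Eno1 lay at 0.688 to 0.742 over the endothelial libraries, and at 0.669 to 0.763 over the microglia libraries. Their sum was 17058 to 35176 in endothelial exosome libraries and 11614 to 15885 in PBS libraries. The exosome libraries therefore also lay above PBS for the sum. The authors' deposited table lists Eno1b in endothelial cells as well, with an adjusted p of 0.00486. Other copies of member genes stood at low levels, with 32 counts or fewer for the aldolase copies Aldoart1 and Aldoart2.

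**Figure D2:**
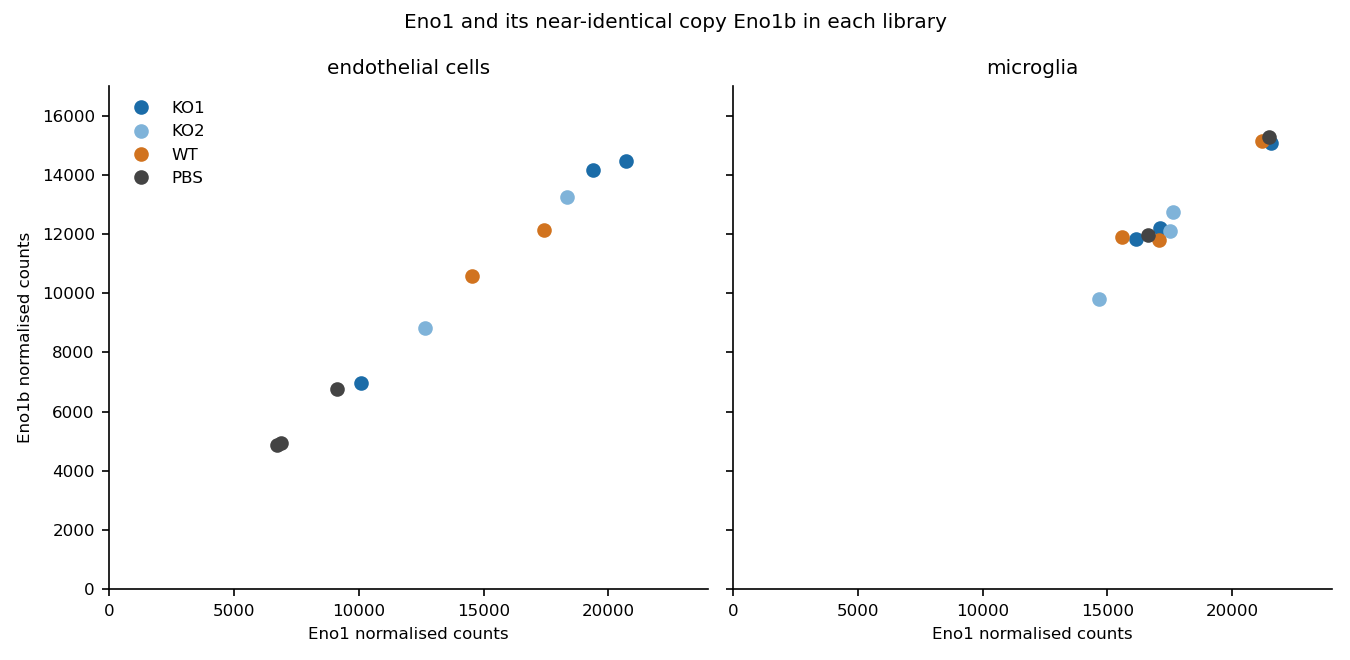
Eno1 (x axis) against its copy Eno1b (y axis) in normalised counts, with 1 point per library, coloured by KO1, KO2, WT and PBS. The points fall along 1 line in both panels, with Eno1b at 0.688 to 0.742 of Eno1 over the endothelial libraries and at 0.669 to 0.763 of it over the microglia libraries.

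No endothelial member passed for exosomes against PBS. In each comparison 8 of 9 lay above PBS, where 3450 of all 7117 genes did for the knockout mean and 3430 for WT. The members varied together over the libraries, so these 9 are not separate observations. For the knockout mean minus PBS, 0 of 9 members passed, against 0% of the 7117 genes, and the median difference was 0.17, beside -0.004 over all genes. At an unadjusted p under 0.05 there were 2 members (Eno1 and Aldoa) and 5.97% of all genes. For WT minus PBS, 0 of 9 passed, against 0.0141% of all genes, with a median of 0.13 beside -0.006. At an unadjusted p under 0.05 there were 1 member (Eno1) and 10.9% of all genes. The member below PBS was Pgk1 for the knockout mean and Hk1 for WT. The comparisons share the PBS libraries, so they are not independent of each other.

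Aldoa, which splits fructose bisphosphate, and Pkm varied least of the 10 members among the endothelial libraries, with the highest library at 1.49 and 1.34 times the lowest. Aldoa stood at 35527, 36052 and 28442 in KO1 A, B and C, 32845 and 35166 in KO2 B and C, 32778 and 31767 in WT A and B, and 24135, 29048 and 24175 in PBS A, B and C. Only KO1 C lay below the highest PBS library, and both WT libraries lay above it, as in 17.7% of all genes. The difference of Aldoa was 0.25 (SE 0.092) for the knockout mean minus PBS (unadjusted p = 0.0197, adjusted p = 0.705, limma) and 0.21 (SE 0.114) for WT minus PBS (adjusted p = 0.528). Pkm averaged 88125 ± 4191 (SD, n = 3) with KO1, 71945 ± 3392 (SD, n = 2) with KO2, 85148 ± 2255 (SD, n = 2) with WT and 76661 ± 11010 (SD, n = 3) with PBS. Pkm was the member for which all KO1 libraries lay above both KO2 libraries (0.24, SE 0.143, adjusted p = 0.862), where 8.57% of all genes did so.

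Ldha, which interconverts pyruvate and lactate, was ordered by letter. It stood at 25417, 23349 and 10758 in KO1 A, B and C, at 20502 and 9700 in KO2 B and C, and at 15141 and 23043 in WT A and B. In PBS A, B and C it stood at 11665, 13553 and 8287. The C libraries were the 3 lowest of all 10, at 8287 to 10758, which 1.22% of all genes tested shared. Both WT libraries lay above PBS (0.40, SE 0.218, adjusted p = 0.534), as in 17.7% of all genes, and without WT B the difference was 0.23. Within letters, exosome libraries exceeded PBS in 7 of 7 pairs, by ratios of 1.17 to 2.18, although the pairs share the PBS libraries. How many of all genes did so was not counted, and KO1 C and KO2 C lay within the range of the PBS libraries. No WT library of letter C was analysed here.

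Pfkl also stood above PBS within each letter. It stood at 6121, 3013 and 1831 in KO1 A, B and C, 3701 and 874 in KO2 B and C, 2376 and 3493 in WT A and B, and 2192, 1290 and 697 in PBS A, B and C. Within letters its ratio to PBS was above 1 in 7 of 7 pairs (1.08 to 2.87), although these also share the PBS libraries and no share of all genes was counted. The WT libraries lay above PBS, as in 17.7% of all genes. That difference was 0.25 (SE 0.159, adjusted p = 0.611, limma), or 1.16 on log2 of recovered counts plus 50. Pfkfb3, whose product activates phosphofructokinase and which is known for its part in vessel sprouting, reached 4630 in KO1 A and lay between 1195 and 2554 in the other libraries. Pfkp was highest in KO2 B, at 2073, and lay between 217 and 940 elsewhere. Its difference for the knockout mean minus PBS was 0.15 (SE 0.080, adjusted p = 0.853), and 0.08 without KO2 B. Pgk1, which makes ATP from bisphosphoglycerate, overlapped throughout, at 11010 to 22151 in exosome libraries and 14408 to 20855 in PBS libraries.

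Hk1 was the endothelial member that separated knockout from WT exosomes. It stood at 9403, 9401 and 7186 in KO1 A, B and C, at 11211 and 7210 in KO2 B and C, and at 6302 and 5493 in WT A and B. In PBS A, B and C it stood at 6837, 6589 and 6487. All 5 knockout libraries lay above both WT libraries, as did 5.28% of all genes, and above all 3 PBS libraries, as did 2.75%. The difference was 0.23 (SE 0.092) for the knockout mean minus WT, with an unadjusted p of 0.029 and an adjusted p of 0.494 in limma, and 0.58 on log2 of recovered counts plus 50. Against PBS it was 0.17 (adjusted p = 0.840) for the knockout mean and -0.06 (adjusted p = 0.868) for WT, both WT libraries lying below PBS as in 17.4% of genes. Without WT A and without WT B the WT value was -0.10 and -0.03. The knockout value against PBS rests in part on KO2 B, without which it was 0.10. Within letters A and B the ratio of knockout to WT ran from 1.49 to 2.04 over 3 pairs, all above 1 because the groups did not overlap. Over all members 0 of 9 passed for the knockout mean minus WT, against 0.0281% of genes, with 4 above and 5 below WT and a median of -0.007. Hk1 was the 1 member with an unadjusted p under 0.05, beside 9.20% of all genes. For KO1 minus KO2, 0 of 9 passed, against 0% of genes, and 0 had an unadjusted p under 0.05, beside 6.06%.

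Markers of the choroid plexus, the secretory epithelium of the ventricles, and of the ependyma moved with the treatment and the letter in these endothelial libraries. The 10 markers, Ttr among them, summed to 168083 to 283671 in the 5 exosome libraries lettered A or B, with 5 to 8 of them at 100 counts or more. They summed to 2938 in KO1 C, 17395 in KO2 C and 67.5 to 4628 in the PBS libraries. In KO1 C and KO2 C, 8 and 7 of the 10 were listed at 0. In those C libraries Eno1 stood at 10105 and 12665, against 6738 to 9120 with PBS, and Ldha at 10758 and 9700, against 8287 to 13553 with PBS. With the 5 exosome libraries lettered A or B left out, the difference of the knockout mean minus PBS was 0.26 for Eno1, 0.05 for Hk1 and 0.05 for Pfkp. That fit held 1 library each of KO1 and KO2, so its spread came from the PBS libraries alone. Fibroblast and meningeal markers summed to 166 to 7727 in exosome libraries and 593 to 1501 in PBS libraries, and microglial markers to 71.7 to 2284 and 780 to 1028. Astrocyte markers summed to 8435 to 24980 in exosome libraries and 18661 to 40764 in PBS libraries, with 1 to 3 of 8 at 100 counts or more. The part of other cells in these values was not tested.

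**Figure D3:**
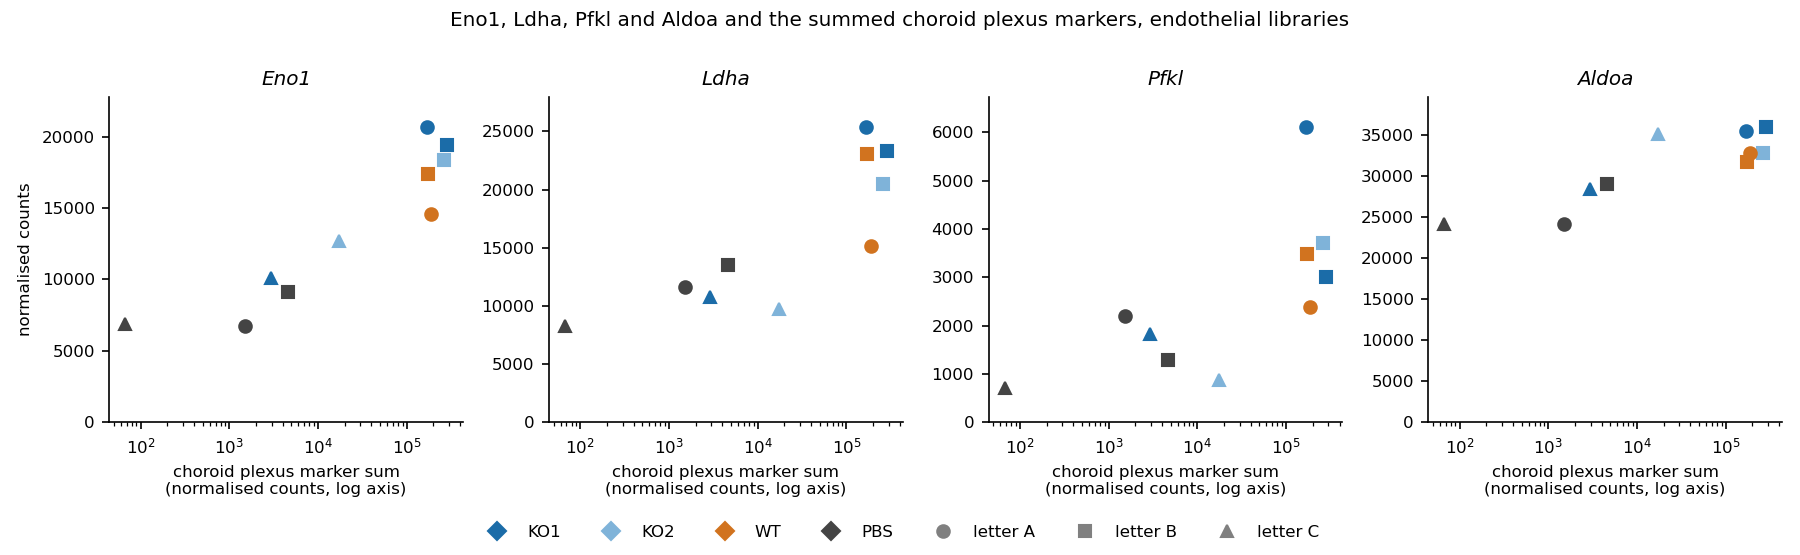
Normalised counts of Eno1, Ldha, Pfkl and Aldoa (y axes, from 0) against the summed choroid plexus and ependyma markers (x axes, log scale) in the 10 endothelial libraries; colour gives KO1, KO2, WT or PBS and shape the letter. The 5 exosome libraries lettered A or B lie at marker sums of 168083 to 283671, and KO1 C and KO2 C lie with the PBS libraries for Ldha.

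Across libraries the endothelial members varied together, which is a description, since the libraries share treatment, letter and cell makeup. Over 36 pairs of tested endothelial members the median Pearson correlation was 0.479 (n = 10 libraries), and 35 were above 0. Ldha with Pfkl (0.905), Aldoa with Eno1 (0.900) and Eno1 with Ldha (0.882) were among the closest. Over 45 microglial pairs the median was 0.170 (n = 11 libraries), with 29 above 0. The genes whose values followed the endothelial member mean most closely were Tspo, a mitochondrial outer membrane protein (0.951), Tgtp2, an interferon-induced GTPase (0.938), Prxl2a (0.926), Eno1b (0.925) and Bnip3, a mitophagy receptor (0.921). The Eno1b count cannot be separated from that of Eno1, a member in that mean, so its place here is no separate result. In microglia the closest genes were Eif4a3l1 (0.937), Arsg (0.936), Abcb4 (0.908), Stk10 (0.907) and Cdca4 (0.887).

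**Figure D4:**
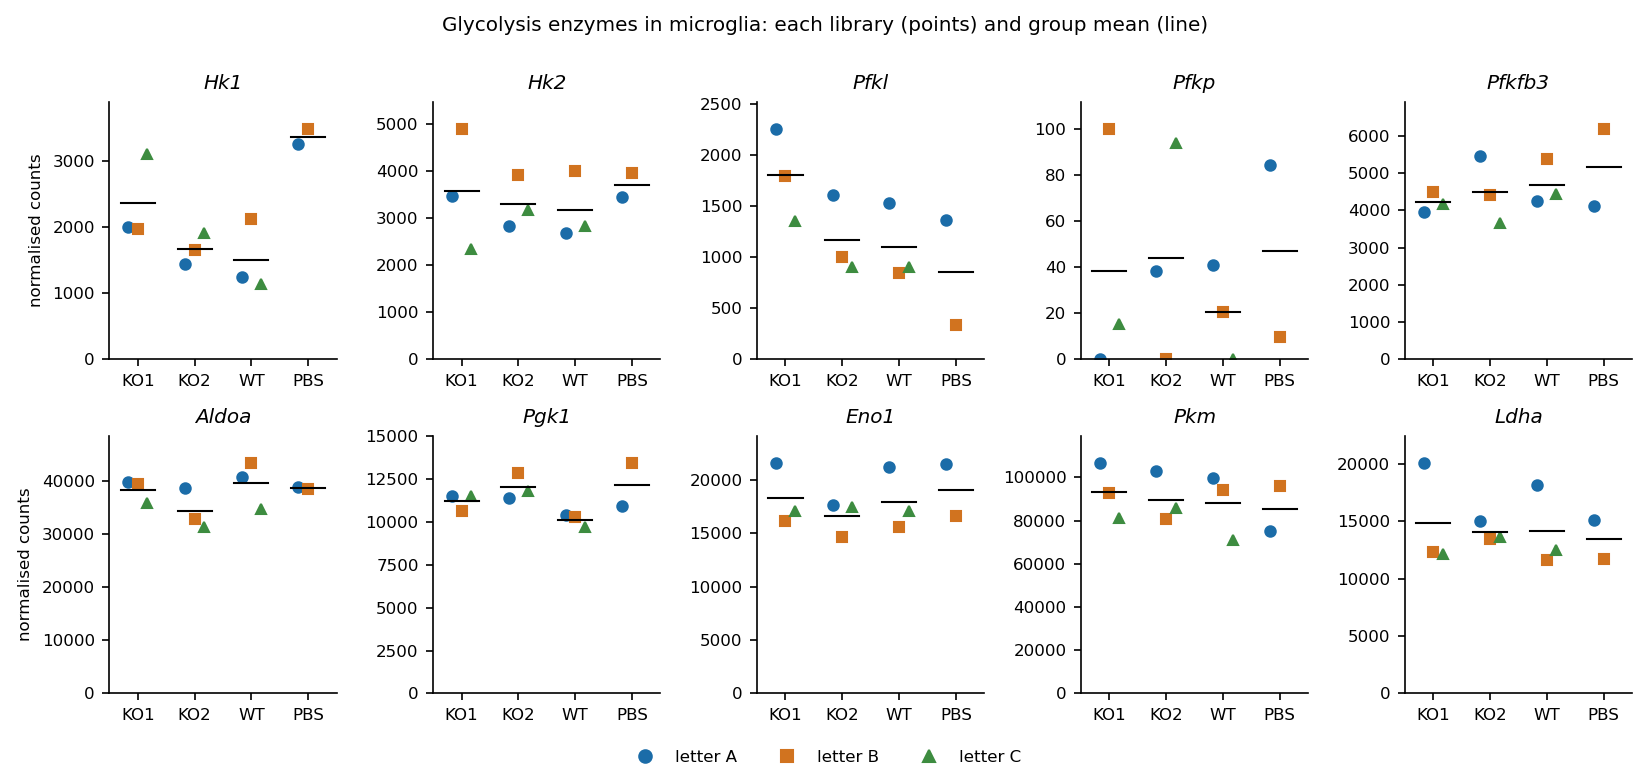
Normalised counts of the 10 enzymes in each microglia library, on linear axes from 0, for KO1, KO2, WT and PBS; points are libraries, their shape and colour give the letter, and lines are group means. Hk1 is lower in all 9 exosome libraries than in both PBS libraries, and Eno1 and Ldha are highest in the letter A libraries (circles).

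In microglia Hk1 (gene 15275, chromosome 10, 62268855 to 62379920) stood lower in every exosome library than in either PBS library. It stood at 2009, 1972 and 3114 in KO1 A, B and C, at 1446, 1664 and 1907 in KO2 A, B and C, and at 1253, 2126 and 1136 in WT A, B and C. In PBS A and B it stood at 3257 and 3489. The groups did not overlap, a state shared by 2.26% of the 10442 genes tested, or 3.81% for the knockout libraries alone, although KO1 C came close to PBS A. The difference was -0.43 (SE 0.137) for the knockout mean minus PBS and -0.63 (SE 0.154) for WT minus PBS, or -0.77 and -1.19 on log2 of recovered counts plus 50. Neither passed in limma (adjusted p = 0.869 and 0.712; unadjusted 0.00937 and 0.00182). Within letters A and B the ratio to PBS ran from 0.385 to 0.617 over 6 pairs, which share the PBS libraries. All lie below 1 because the groups did not overlap.

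The authors' deposited table lists Hk1 in microglia, with an adjusted p of 0.0250, a log2 fold change of 0.153 and a mean of 2125 normalised counts. The contrast behind that fold change is not stated, so its sign cannot be set against the differences from PBS. In the limma F test over the 4 groups no microglial member had an adjusted p under 0.9997. Between knockout and WT exosomes the difference of Hk1 was 0.19 (95% interval -0.07 to 0.46), 0.04 with the C libraries left out, and 0.32 and 0.12 without WT B and WT C. All 3 KO1 libraries lay above all 3 KO2 libraries (0.24, SE 0.137, adjusted p = 0.9995 in limma), as did 4.02% of genes, and without KO1 C this was 0.12. The summed microglial markers were 23694 to 33213 in exosome libraries and 28700 to 33380 in PBS libraries, and oligodendrocyte markers 3197 to 9197 and 3956 to 6733. Neuron markers summed to 354.8 or less in exosome libraries and to 127 or less in PBS libraries, and choroid plexus and ependyma markers to 1.63 to 10446 and to 669 to 5729. Markers of border-associated macrophages, the macrophages of the meninges and perivascular spaces, summed to 2644, 6154 and 1006 in KO1 A, B and C, to 3126, 5351 and 702 in KO2, to 2177, 5200 and 1158 in WT, and to 2081 and 1534 in PBS A and B. They stood above PBS of the same letter in 6 of 6 pairs, the pairs in which Hk1 stood lower, while in the 3 C libraries they lay below both PBS libraries. Of these 7 markers 3 to 5 were listed at 0 in each library. The part of these cells in the Hk1 values was not tested.

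No microglial member passed in any comparison. For the knockout mean minus PBS, 0 of 10 passed, against 0% of 10442 genes; 3 lay above PBS and 7 below, with a median of -0.09. For WT minus PBS, 0 of 10 passed, against 0% of genes; 4 lay above and 6 below, with a median of -0.09. Over all genes, 5214 and 5166 of 10442 lay above PBS in these comparisons. At an unadjusted p under 0.05, Hk1 was the member in each, beside 5.44% and 5.29% of all genes. For the knockout mean minus WT and for KO1 minus KO2, 0 of 10 passed, against 0% of genes in both, and no member had an unadjusted p under 0.05, where 3.27% and 3.40% of all genes did.

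Pgk1 was the microglial member that separated knockout from WT exosomes. It stood at 11513, 10668 and 11491 in KO1 A, B and C, at 11423, 12859 and 11796 in KO2 A, B and C, and at 10384, 10297 and 9728 in WT A, B and C. In PBS A and B it stood at 10923 and 13419. All 6 knockout libraries lay above all 3 WT libraries, as did 0.939% of genes, by 0.18 (SE 0.107, adjusted p = 0.9996 in limma). The WT libraries lay below PBS (-0.24, SE 0.138, adjusted p = 0.925), as in 9.82% of genes, and the difference was -0.10 without PBS B and -0.38 without PBS A. Pfkl stood at 2250, 1793 and 1353 in KO1 A, B and C, 1608, 996 and 900 in KO2, 1531, 845 and 905 in WT, and 1365 and 336 in PBS A and B. Its difference for the knockout mean minus PBS was 0.31 (SE 0.160, adjusted p = 0.919), and it was 0.04 without PBS B and 0.58 without PBS A.

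Several microglial members were ordered by letter. Eno1 stood at 21546 in KO1 A, 17638 in KO2 A, 21175 in WT A and 21484 in PBS A, and at 14676 to 17486 in the other 7 libraries. Ldha was likewise highest in the 4 libraries lettered A, at 15051 to 20029, against 11646 to 13644 elsewhere. Among all genes 0.737% had every A library highest, and these included Tpi1, the triosephosphate isomerase of the pathway (12367 to 13964 in A libraries). Hk2 was highest in the 4 libraries lettered B, with 4895 in KO1, 3923 in KO2, 4016 in WT and 3965 in PBS, where 0.728% of genes had every B library highest. Eno1 was lowest in B, as were 0.450% of genes. Pfkfb3 (3649 to 6178), Aldoa (31426 to 43374) and Pkm (71048 to 106464) showed no separation by treatment, and Pfkp lay at 0 to 99.8.

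**Figure D5:**
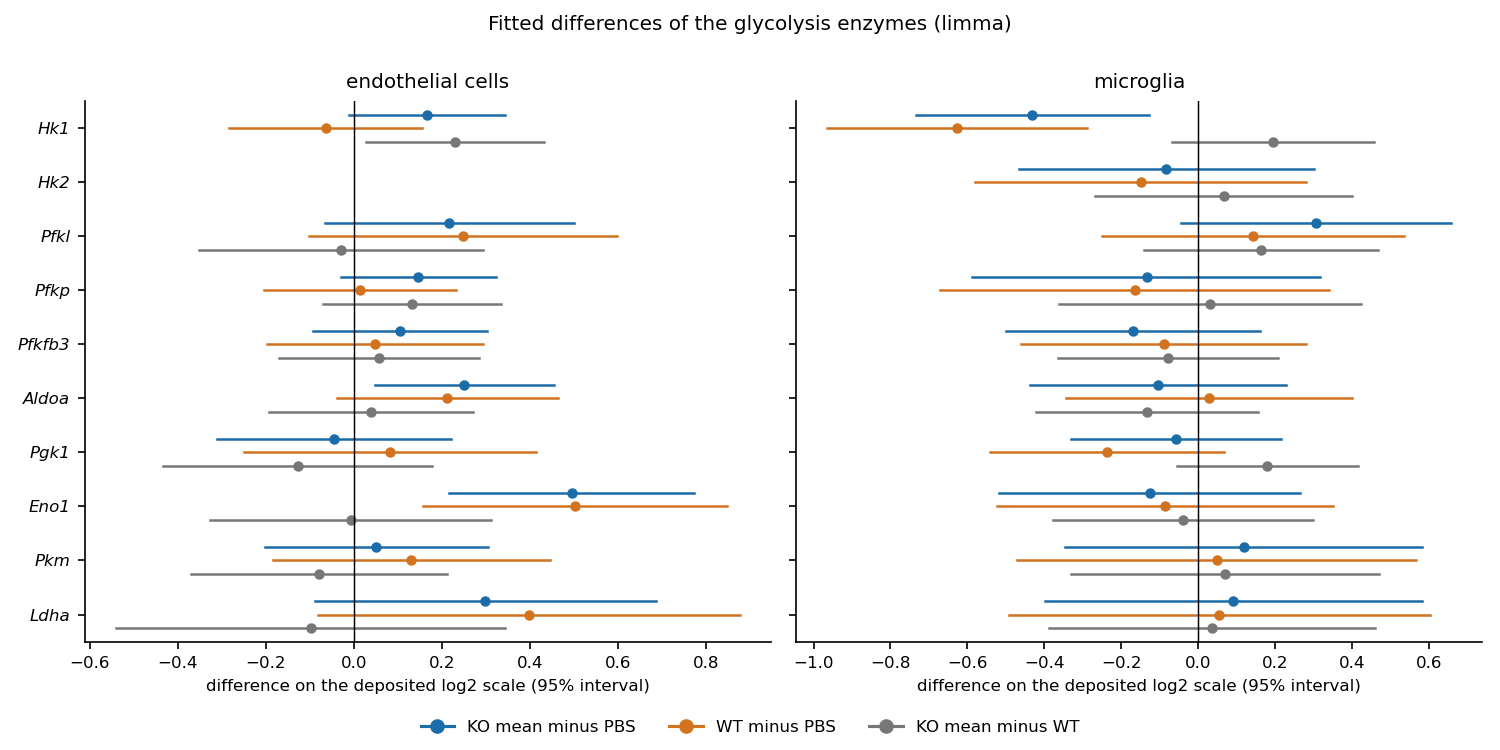
Fitted differences of the tested members on the deposited log2 scale (x axes, with 95% intervals) for the knockout mean minus PBS, WT minus PBS and the knockout mean minus WT, in endothelial cells (9 members, Hk2 not tested) and microglia (10). The intervals that exclude 0, for Eno1, Aldoa and Hk1, are unadjusted, and none passed after adjustment over all genes.

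Of 20 other genes of glycolysis listed, 6 were tested in endothelial cells, and 0 passed in any comparison. At an unadjusted p under 0.05 there was 1 for the knockout mean and 4 for WT against PBS, beside 5.97% and 10.9% of all genes. All 6 lay above PBS for the knockout mean (median 0.21) and for WT (median 0.31), as did 3450 and 3430 of all 7117 genes. All 6 lay below WT for the knockout mean minus WT (median -0.10), where 3584 of all 7117 genes lay above. Tpi1 stood at 8808, 8469 and 3188 in KO1 A, B and C, 8394 and 5375 in KO2 B and C, 8214 and 6863 in WT A and B, and 3327, 4457 and 2115 in PBS A, B and C. It differed by 0.34 for the knockout mean and 0.41 for WT against PBS (adjusted p = 0.705 and 0.390, limma), and the authors' deposited table lists it with an adjusted p of 0.00562. Gapdh, glyceraldehyde phosphate dehydrogenase, differed by 0.25 and 0.40, Gpi1 by 0.16 and 0.26, Pgam1 by 0.18 and 0.27, and Ldhb by 0.24 and 0.36. In microglia 15 were tested and 0 passed, with 8 above PBS for the knockout mean and 6 for WT, where 5214 and 5166 of all 10442 genes lay above. For the knockout mean minus WT, 2 of these 15 had an unadjusted p under 0.05, beside 3.27% of all genes. Against PBS there was 1 for WT and 0 for the knockout mean, beside 5.29% and 5.44%. For KO1 minus KO2 there were 0, beside 3.40%.

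Slc2a1 and Slc16a1, transporters that carry glucose and lactate across the endothelial membrane, stood lower with exosomes. Slc2a1, the glucose transporter of brain vessels, stood at 41184, 39439 and 62425 in KO1 A, B and C, 49462 and 50116 in KO2 B and C, 48726 and 40299 in WT A and B, and 79679, 65587 and 67040 in PBS A, B and C. Every exosome library lay below every PBS library, as in 1.41% of genes. Its difference was -0.42 for the knockout mean and -0.51 for WT against PBS (adjusted p = 0.667 and 0.341, limma). Slc16a1, the monocarboxylate transporter of brain vessels that carries lactate, showed the same separation, at 942 to 5614 in exosome libraries and 7670 to 9023 in PBS libraries. It differed by -0.36 and -0.62 (adjusted p = 0.667 and 0.201). Slc16a3, the lactate exporter of glycolytic cells, differed by 0.06 and 0.11, and Pdk1, which holds pyruvate back from mitochondria, lay at 0 to 1084. From the list of glucose and lactate transport and pyruvate entry, the authors' deposited table holds Pdk4 in endothelial cells (likelihood ratio test, adjusted p = 0.000711). Of this list 11 of 17 were tested in endothelial cells and 0 passed in limma. At an unadjusted p under 0.05 there were 2 for the knockout mean and 2 for WT against PBS, beside 5.97% and 10.9% of all genes. The summed endothelial markers also stood lower, at 213844 to 252649 in exosome libraries and 254464 to 280002 in PBS libraries, and the part of cell makeup in the transporter values was not tested.

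In microglia the same transport list lay mostly below PBS: 12 of 16 for the knockout mean and 14 of 16 for WT, with 0 passing. Of all 10442 genes, 5214 and 5166 lay above PBS. At an unadjusted p under 0.05 there were 2 and 1, beside 5.44% and 5.29% of all genes. Slc16a1 stood at 821 to 3024 in exosome libraries and at 3821 and 3549 in PBS A and B, a separation shared by 2.26% of all genes. Of the HIF pathway list, 15 of 21 for the knockout mean and 16 of 21 for WT lay below PBS, and 0 passed. There was 1 in each at an unadjusted p under 0.05, beside the same 5.44% and 5.29% of all genes. Hif1a, the oxygen-regulated subunit of HIF, stood at 3754, 2876 and 2907 in KO1 A, B and C, 1707, 2549 and 1901 in KO2, 3131, 1856 and 1477 in WT, and 3856 and 3784 in PBS A and B. It differed by -0.36 and -0.51 (adjusted p = 0.897 and 0.887, limma), and all 9 exosome libraries lay below PBS, again as in 2.26% of all genes, with KO1 A close to PBS. In endothelial cells 0 of 19 tested HIF genes passed, with 3 and 1 at an unadjusted p under 0.05, beside 5.97% and 10.9% of all genes. The medians were 0.04 and 0.07, beside -0.004 and -0.006 over all genes. There Hif1a differed by 0.04 and -0.06, Vegfa, the vascular growth factor, by 0.23 and 0.27, and Egln3, an oxygen sensor, lay at 0 to 632. Of these HIF genes the authors' deposited table lists Ero1a and Myc in endothelial cells (likelihood ratio test, adjusted p = 0.00162 and 0.0176). For KO1 minus KO2, 4 of the 19 endothelial HIF genes had an unadjusted p under 0.05, beside 6.06% of all genes. For the knockout mean minus WT there were 0, beside 9.20%. In microglia 2 of 21 and 0 of 21 did so in these comparisons, beside 3.40% and 3.27%, and 0 passed in either cell type. Of the pentose phosphate enzymes 0 of 6 endothelial and 0 of 7 microglial genes passed in any comparison. At an unadjusted p under 0.05 there was 1 in endothelial WT minus PBS and 1 in endothelial KO1 minus KO2, beside 10.9% and 6.06% of all genes.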

How the data were processed

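RNA of sorted endothelial cells and microglia was sequenced, and the submitters' processing notes name FastQC 0.11.7, Trimmomatic 0.38, Salmon 0.10.0, DESeq2 1.18.1 and GRCm38.p6. The authors deposited log2 values, variance-stabilised per the labels, whose lowest value is a floor for genes without reads (13.2814 in endothelial cells, 9.8893 in microglia). For 362 endothelial and 238 microglial genes, the authors deposited results of a likelihood ratio test: log2 fold changes, a mean signal in normalised counts, a test score, and p-values. Not analysed here were endothelial WT C and KO2 A, and microglial PBS C. Symbols came from a reference gene table (20537 of 20555 matched).

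Normalised counts were recovered from the deposited log2 values, exactly in endothelial cells (recovered over authors' mean 1.000) and by a fitted curve in microglia (largest held-out error 0.297%, not anchored below a mean of 54.3, so low microglial levels are approximate). limma 3.58.1 (R 4.3.3) tested the differences, with a mean-variance trend, 1 fit per cell type over its libraries, no term for letters, and Benjamini-Hochberg adjustment at 0.05. Tested were genes whose mean exceeded the floor by 0.25 or more: 7117 of 14164 varying endothelial genes with 9 of 10 members (Hk2 fell short), and 10442 of 13950 in microglia with all 10. The deposited scale understates differences, more so at low counts, since its floor is high. The fit was tested on simulated data. Letters were checked as pairs by the correlation of deviations from group means. The 10 enzymes and the gene lists were chosen with earlier results of these data known. Named are all members, the genes fixed by name in each list, any gene that passed, and the 5 genes most like the member mean per cell type. Genes of the lists that the authors' deposited table holds are named as well. Fitted differences are printed for members whose groups did not overlap in that comparison, had an unadjusted p under 0.1, or were listed by the authors. Per-kilobase levels used the median annotated coding transcript length (GENCODE M21). Python 3.11.15, NumPy 2.4.6 and Biopython 1.88 were used. Alternatives covered the filter, the scale, the letter, the groups in the fit and each library left out.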

Additional observations from a re-analysis of the deposited data

Results flagged for a closer look

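Hk1 lay on opposite sides of PBS in the cell types with knockout exosomes. Its difference for the knockout mean minus PBS was 0.17 in endothelial cells, where all 5 knockout libraries lay above all 3 PBS libraries, as did 2.75% of genes. It was -0.43 in microglia, where all 6 knockout libraries lay below both PBS libraries, as did 3.81% of genes. The endothelial value rests in part on KO2 B, and was as low as 0.05 under the alternatives. Neither difference passed in limma, and the difference between the cell types was not tested, because the tables were normalised separately.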

How the results depend on the processing

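Of 10 counts of members that passed, 1 per cell type and comparison, each was 0 in all 174 recomputations under the alternatives, and the lowest adjusted p of any member was 0.0934, for Eno1 in endothelial WT minus PBS with only those groups in the fit. Of 76 member differences, 40 took the other sign in at least 1 alternative, among the 20 printed ones 2. Endothelial Eno1 for the knockout mean minus WT (-0.01) was 0.10 with the letter as a replicate block, 0.15 without the C libraries, a choice made after seeing the data, and -0.08 to 0.08 with single libraries left out. Eno1 for KO1 minus KO2 (0.04) ranged from -0.10 to 0.21 with single libraries left out. These values lie near 0, and the cause was not tested.

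Deviations from group means correlated above 0 in every pair of samples of the same letter. The correlations were 0.0259 to 0.258 in endothelial cells, with 7 of 12 pairs over 0.1, and 0.00716 to 0.364 in microglia, with 7 of 15. Among libraries of other groups, 8 of 10 endothelial and 10 of 11 microglia libraries correlated best with a library of their own letter. The main fit held no term for letters. With the letter as a replicate block 0 members passed, as without it. Over all genes the block gave 17 calls for WT minus PBS, 11 for the knockout mean minus PBS and 4 for any group in microglia, where there were 0 without it, and 0 in endothelial cells, where there were 1 for WT minus PBS and 2 for the knockout mean minus WT. Other alternatives moved the counts over all genes too. In endothelial cells with no filter there were 6 calls for the knockout mean minus WT, against 2, and 9 for WT minus PBS, against 1. For the knockout mean minus PBS there were 17, against 0. With only the compared groups there were 12 for WT minus PBS. Leaving out WT B left 1 endothelial WT library, so the counts of that fit are not given. Nor are those without the endothelial exosome libraries lettered A or B, also chosen after seeing the data, which left 1 library each of KO1 and KO2. Groups of 2 or 3 libraries leave wide intervals, and Hk2 in endothelial cells was below the filter (0.09 for the knockout mean minus PBS without it, adjusted p = 0.898).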
